A study of Homo sapiens with 10 samples.

Results

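Matrix metalloproteinases are zinc-dependent proteases that cut collagens, laminins and other proteins around cells. Most are made as inactive precursors that another protease must cleave, and tissue inhibitors of metalloproteinases (TIMPs) block the active enzymes by binding the catalytic site. In lung tumours the family is known for remodelling of the matrix at the invading edge, and several of its genes are textbook targets of the AP-1 transcription factors (dimers of Fos and Jun proteins). The genes described are 10 rows of a count table of 57736 Ensembl gene IDs, picked by gene name: the secreted collagenases MMP1 and MMP13, the matrilysin MMP7, the stromelysin MMP10, the membrane-anchored MMP14 and MMP15, the secreted protease ADAMTS1, and the inhibitors TIMP1, TIMP2 and TIMP3. Of these 10 genes, 9 had enough counts to be tested among 17978 genes, and MMP10, with at most 9 counts in a library, did not.

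RNA was sequenced from 10 libraries of 3 human lung cancer cell lines, each transfected with an siRNA against p53 or with a control siRNA. In NCI-H2087 the p53 gene has the mutation V157F. NCI-H441 is labelled R158L, whereas R158P is the label of NCI-H2110. Since each mutation occurs in 1 line, mutation and line cannot be told apart. Each siRNA was sequenced in 2 libraries (n = 2) for NCI-H2087 and for NCI-H441, and in 1 library for NCI-H2110. The sample titles speak of a knockout and the protocol of an siRNA, so the treatment is called p53 siRNA here, and library totals ran from 18336672 to 25810934 counts. Levels are CPM (counts scaled to a common library total) on library sizes scaled by TMM, and changes are log2 fold changes of p53 siRNA over control siRNA ± standard error from edgeR's quasi-likelihood test. A gene was called where its Benjamini-Hochberg adjusted p, taken over the whole table of tested genes, was below 0.05. The labels do not say whether replicates were separate cultures, so the spread behind each p is that between libraries and may be technical.

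The upstream sequences found for 6 of these genes fall into 2 kinds. MMP7 and MMP10, which lie in the same chromosome 11 cluster as MMP1 and MMP13, reached at most 24 and 9 counts. MMP14 and TIMP1 were abundant in every line. TIMP3 was abundant in NCI-H2110 alone and had at most 8 counts in a library of the other lines. Whether the upstream sequence has a part in these levels was not tested. The 100 bases before a RefSeq start of each gene were taken from RefSeq promoters on GRCh38.p14. These held 6 of the 10 genes (MMP7, MMP10, MMP14, MMP15, TIMP1 and TIMP3). By the gene models of GENCODE 29, the windows of TIMP1 and MMP15 lie inside the gene. Those of MMP7, MMP14 and TIMP3 overlap its first bases. No window was found for MMP1, MMP13, TIMP2 and ADAMTS1, and the window of MMP15 was searched but is not printed. Capitals mark 3 motifs searched on both strands: the AP-1 element TGANTCA, the TATA box TATAAA and the GC box GGGCGG, with no overlaps among the matches.
MMP7 (chr11:102530748-102530847, minus strand): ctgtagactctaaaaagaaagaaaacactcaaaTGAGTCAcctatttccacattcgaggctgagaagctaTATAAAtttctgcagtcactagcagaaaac
MMP10 (chr11:102780629-102780728, minus strand): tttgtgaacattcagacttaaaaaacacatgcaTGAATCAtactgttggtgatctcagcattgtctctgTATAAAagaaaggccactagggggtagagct
MMP14 (chr14:22836485-22836584, plus strand): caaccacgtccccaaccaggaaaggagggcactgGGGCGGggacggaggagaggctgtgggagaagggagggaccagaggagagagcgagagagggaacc
TIMP1 (chrX:47582336-47582435, plus strand): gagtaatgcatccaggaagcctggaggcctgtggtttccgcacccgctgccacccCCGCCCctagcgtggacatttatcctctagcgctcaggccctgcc
TIMP3 (chr22:32801605-32801704, plus strand): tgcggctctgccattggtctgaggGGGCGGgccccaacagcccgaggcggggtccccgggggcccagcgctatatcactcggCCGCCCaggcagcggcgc

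MMP7 and MMP10 carried the AP-1 element with its first base 67 bases before the start in both, and TATAAA 30 bases before the start in MMP7 and 31 bases before it in MMP10. In the same window TGANTCA occurred in 2.75% and TATAAA in 4.99% of 35116 promoters. The windows of MMP14, MMP15, TIMP1 and TIMP3 held neither. Each of those 4 held GGGCGG or its complement, as did 31.3% of all promoters, with 2 matches in MMP15 and TIMP3 and 1 in MMP14 and TIMP1. GC content was 37% in MMP7 and 39% in MMP10, against a median of 60% over all promoters, and ran from 64% in TIMP1 to 78% in MMP15. A match is a run of letters, not a shown binding site.

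In NCI-H2087 p53 siRNA moved the collagenases in opposite directions: MMP1 rose 12.7-fold and MMP13 fell 9.37-fold. ADAMTS1 rose 6.80-fold and MMP14 rose 2.35-fold, while the inhibitors TIMP1 and TIMP2 were 1.40-fold and 1.38-fold higher without passing the test. Of the 9 genes tested, 3 were called higher and 1 lower, beside 8.68% of all genes called in this comparison, 4.98% higher and 3.69% lower. The genes were chosen with earlier results of these data known, so these counts are a description. In cultures sequenced in bulk, fewer cells of a kind and less RNA per cell cannot be told apart. The levels in every library are shown in the plot of CPM by gene.

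**Figure D1:**
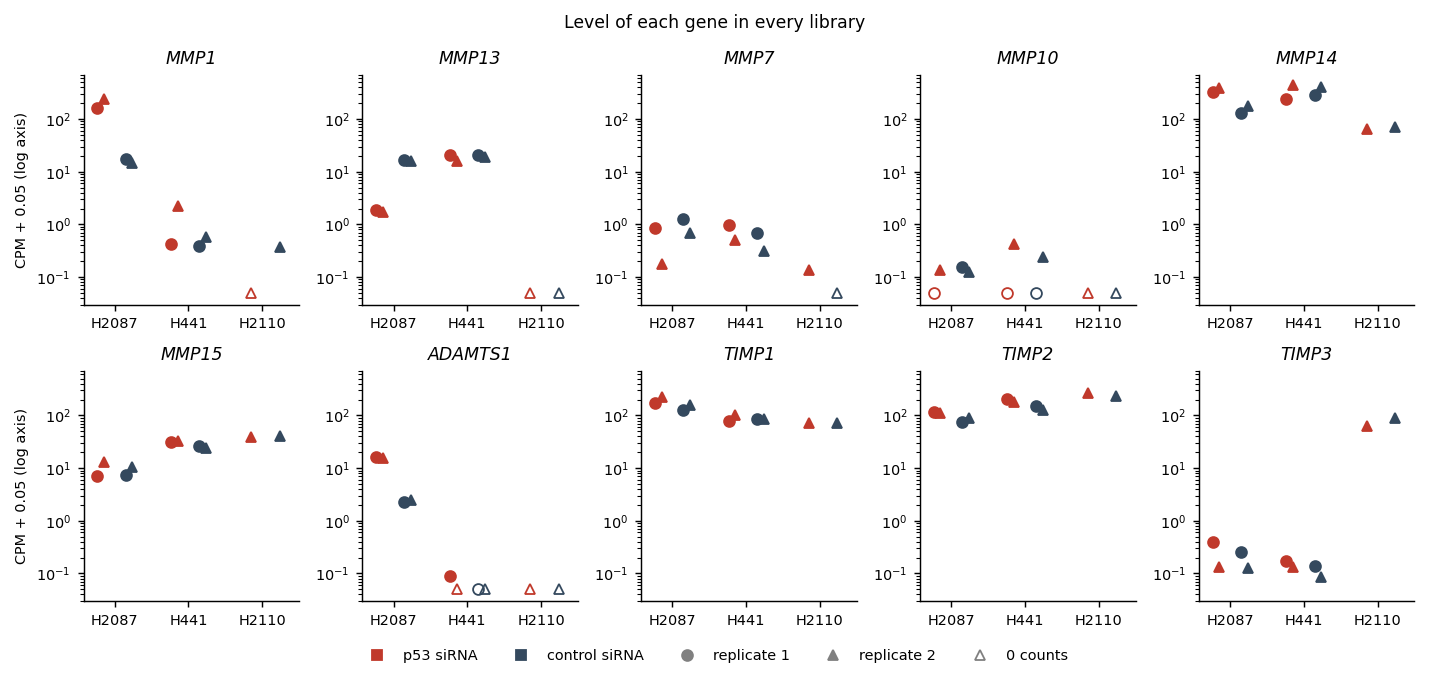
CPM plus 0.05 (log axis) of the 10 genes in each library, by line, with p53 siRNA in red left of control siRNA in dark blue, circles for replicate 1, triangles for replicate 2 and open symbols for 0 counts. In NCI-H2087 the p53 siRNA libraries stand above the control libraries for MMP1, ADAMTS1 and MMP14 and below them for MMP13. TIMP3 is near 0 in all libraries but those of NCI-H2110.

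MMP1 (ENSG00000196611), the interstitial collagenase that makes the first cut in fibrillar collagen, had 160 and 240.4 CPM in the p53 siRNA libraries of NCI-H2087, from 3755 and 5689 counts, against 17.0 and 14.6 CPM in the control libraries, from 330 and 386 counts. Both p53 siRNA libraries were far above both controls, by 9.39-fold in replicate 1 and 16.4-fold in replicate 2. The change was 3.67 ± 0.47 log2 (adjusted p = 0.00255), and without control replicate 2 its adjusted p was 0.0564. MMP1 shares 150 exonic bases with WTAPP1, an antisense pseudogene, which had at most 2 counts in any library.

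MMP13 (ENSG00000137745), another collagenase, stood at 1.80 and 1.65 CPM with p53 siRNA, from 42 and 39 counts, against 16.6 and 15.8 CPM with control siRNA, from 322 and 418 counts. The groups were far apart and each was tight. The fall of 3.23 ± 0.24 log2 (adjusted p = 0.000375) had a p that ranked 6 of 17978. It was called under all 11 alternative settings, with a highest adjusted p of 0.0167.

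ADAMTS1 (ENSG00000154734), a secreted protease that cleaves the proteoglycans versican and aggrecan, was at 16.2 and 15.6 CPM with p53 siRNA, against 2.22 and 2.45 CPM with control siRNA. It rose by 2.76 ± 0.33 log2 (adjusted p = 0.00258), and was called under all 11 alternatives, with a highest adjusted p of 0.0482. MMP14 (ENSG00000157227), the membrane-anchored protease that activates pro-MMP2 at the cell surface, was at 330.1 and 390.6 CPM with p53 siRNA, against 128 and 178 CPM with control siRNA. Its rise of 1.23 ± 0.30 log2 (adjusted p = 0.0331) lost the call without each of the 4 NCI-H2087 libraries in turn (adjusted p = 0.0568 to 0.198) and with library totals as the only scaling (adjusted p = 0.0519). Without each of the 4 libraries in turn, the log2 changes kept their direction. They ran from 3.35 to 3.93 for MMP1 and from -3.29 to -3.17 for MMP13. For ADAMTS1 they ran from 2.71 to 2.85, and for MMP14 from 1.03 to 1.51.

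TIMP1 (ENSG00000102265), a secreted inhibitor of most matrix metalloproteinases, had 171 and 228 CPM with p53 siRNA, against 125 and 160 CPM with control siRNA. TIMP2 (ENSG00000035862), which inhibits these enzymes and also takes part in the activation of pro-MMP2 by MMP14, had 117 and 112 CPM with p53 siRNA, against 76.5 and 90.0 CPM with control siRNA. For both inhibitors the p53 siRNA libraries lay above the controls, by 0.49 ± 0.21 log2 for TIMP1 (adjusted p = 0.183) and 0.46 ± 0.16 log2 for TIMP2 (adjusted p = 0.117). In the fit with the replicate number as a block both were called higher, with adjusted p = 0.0191 for TIMP1 and 0.0206 for TIMP2. That fit called 25.4% of all genes. TIMP2 shares 367 exonic bases with an antisense gene, and the strand used in counting is not given in the sources used here. Of its stretches of 50 bases, 8.28% also occur in that gene or in CEP295NL, a protein-coding gene on the same strand.

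The other genes were not called in NCI-H2087. MMP15 (ENSG00000102996), a second membrane-anchored protease, had 6.88 and 12.9 CPM with p53 siRNA, against 7.27 and 10.7 CPM with control siRNA, and the groups overlapped. MMP7 (ENSG00000137673), a small epithelial protease, had 19 and 3 counts with p53 siRNA, against 24 and 17 with control siRNA. TIMP3 (ENSG00000100234), the inhibitor that binds to the matrix and also blocks ADAMTS proteases, had 8 and 2 counts against 4 and 2. MMP10 (ENSG00000166670), a stromelysin, had 0 and 2 counts against 2 and 2.

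**Figure D2:**
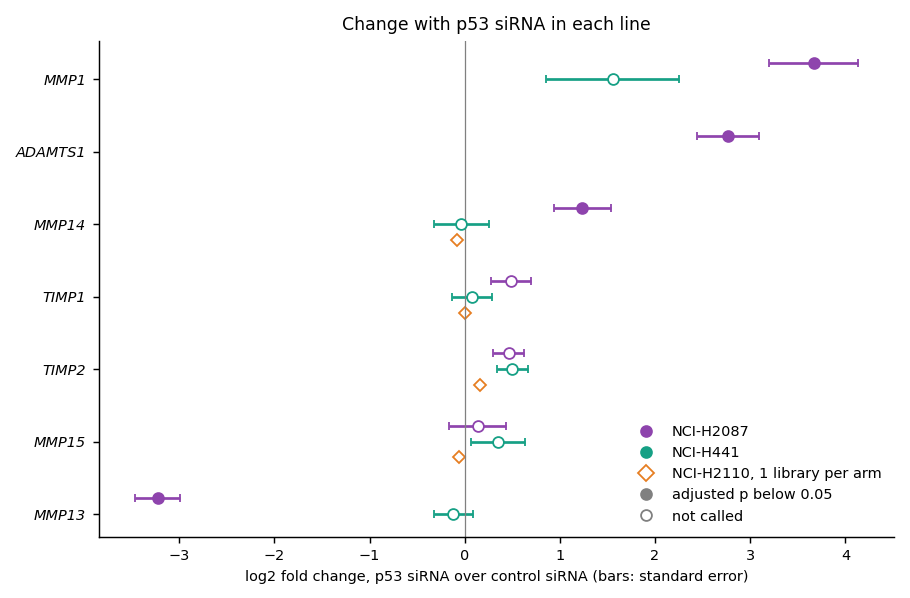
Log2 fold change of p53 siRNA over control siRNA for 7 genes in each line, with bars of 1 standard error for NCI-H2087 and NCI-H441 and a diamond without error for NCI-H2110. Filled circles have an adjusted p below 0.05, and no value is drawn where a gene had too few counts. The 4 filled circles are all in NCI-H2087, from -3.23 for MMP13 to 3.67 for MMP1.

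In NCI-H441 none of the 9 genes was called by edgeR, where 0.00556% of all genes were called, and TIMP2 was the 1 gene of the 9 with an unadjusted p below 0.05. DESeq2 called none either, giving MMP7 and ADAMTS1 no adjusted p. TIMP2 had 205.2 and 181 CPM with p53 siRNA, against 148 and 125 CPM with control siRNA. The groups did not overlap, and the change of 0.50 ± 0.16 log2 had an adjusted p of 0.933. MMP13 stood at 20.4 and 16.1 CPM with p53 siRNA, against 20.6 and 19.1 CPM with control siRNA (-0.12 ± 0.20 log2, adjusted p = 0.974). MMP1 had 9 and 54 counts with p53 siRNA, against 8 and 14 with control siRNA, so that 1 library was high and the others were close together. Its log2 change of 1.55 ± 0.70 (adjusted p = 0.933) became -0.24 without that library, p53 siRNA replicate 2.

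MMP14 in NCI-H441 differed more between replicate numbers than between siRNAs. It had 244 and 438 CPM with p53 siRNA, against 283 and 415 CPM with control siRNA, so replicate 2 was 1.80-fold above replicate 1 in the p53 siRNA arm and 1.46-fold above it in the control arm. The change with p53 siRNA was -0.03 ± 0.29 log2 (adjusted p = 1.00). MMP15 had 31.2 and 32.4 CPM with p53 siRNA, against 25.9 and 24.1 CPM with control siRNA, without overlap (0.35 ± 0.28 log2, adjusted p = 0.933). TIMP1 had 76.7 and 103 CPM against 84.3 and 85.8 CPM (0.08 ± 0.21 log2), and the groups overlapped. ADAMTS1 was all but absent from this line, with 1 and 0 counts in the p53 siRNA libraries and 0 in both control libraries. MMP7 had 23 and 11 counts with p53 siRNA against 15 and 7, TIMP3 had 3 and 2 against 2 and 1, and MMP10 had 0 and 9 against 0 and 5.

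NCI-H2110 had no replicate, so its ratios have no test, and their intervals (exact binomial, 95%) cover counting error only. Of the 10 genes 5 reached 50 counts in at least 1 library, and none of these differed 2-fold, beside 1.49% of 12385 genes that did. TIMP3 was at 64.0 CPM with p53 siRNA, against 87.9 CPM with control siRNA, from 1478 and 2233 counts. That log2 ratio of -0.46 (-0.55 to -0.36) was the largest in size of the 5. TIMP2 had 261 CPM against 235 CPM (0.16, 0.10 to 0.21). MMP14 had 65.4 CPM against 69.1 CPM, MMP15 had 39.1 CPM against 40.7 CPM and TIMP1 had 72.3 CPM against 72.1 CPM, with intervals that include 0. MMP1 had 0 counts with p53 siRNA, which allows up to 0.13 CPM, against 8 with control siRNA. MMP7 had 2 counts against 0, and MMP10, MMP13 and ADAMTS1 had 0 in both libraries.

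Whether the changes of NCI-H2087 and NCI-H441 differed was tested in the same model, as the change in NCI-H2087 minus that in NCI-H441. MMP13 was the 1 gene of the 9 called, at -3.11 ± 0.31 log2 (adjusted p = 0.0137), beside 0.412% of all genes called. It kept that call with RLE scaling, library totals alone, no count filter, DESeq2, limma-voom and the replicate block, and lost it without each of the 4 control libraries in turn (adjusted p = 0.0564 to 0.118). MMP14 differed by 1.27 ± 0.42 log2 (adjusted p = 0.240) and MMP1 by 2.11 ± 0.88 log2 (adjusted p = 0.348). With the replicate number as a block, which called 8.92% of all genes, both were called, at 1.32 ± 0.19 log2 for MMP14 (adjusted p = 0.000722) and 2.11 ± 0.56 log2 for MMP1 (adjusted p = 0.0282). Both were also called by edgeR without the count filter, which called 810 genes (adjusted p = 0.00034 for MMP14 and 0.00052 for MMP1). DESeq2, which called 476 genes, called MMP14 (adjusted p = 0.0491). TIMP2, whose log2 change was 0.46 in NCI-H2087 and 0.50 in NCI-H441, differed by -0.04 ± 0.23 (adjusted p = 1.00). For ADAMTS1 and TIMP3, with at most 3 counts in NCI-H441, the difference cannot be read.

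Over the 3 lines together, in a model with line as a second term, ADAMTS1 was the 1 gene of the 9 called, at 2.75 ± 0.33 log2 (adjusted p = 0.00945), beside 0.395% of all genes called. That value rests on NCI-H2087, since the other lines held 1 count of ADAMTS1 in all, and the call was lost without control replicate 1, control replicate 2 or p53 siRNA replicate 1 of that line (adjusted p = 0.0542 to 0.122). TIMP2 changed by 0.42 ± 0.11 log2 without being called (adjusted p = 0.141), although each p53 siRNA library lay above each control library of its own line. DESeq2 gave it an adjusted p of 0.0135. Without the count filter, where edgeR called 1123 genes, MMP1, MMP13 and MMP14 were called too (adjusted p = 5.4e-31, 6.4e-08 and 0.0433). MMP1 had 2.87 ± 0.62 log2 (adjusted p = 0.0763), and was called without either NCI-H2110 library or NCI-H441 p53 siRNA replicate 1 (adjusted p = 0.0238 to 0.0386) and by limma-voom (adjusted p = 0.0266), and MMP13 -1.54 ± 0.52 log2 (adjusted p = 0.225).

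**Figure D3:**
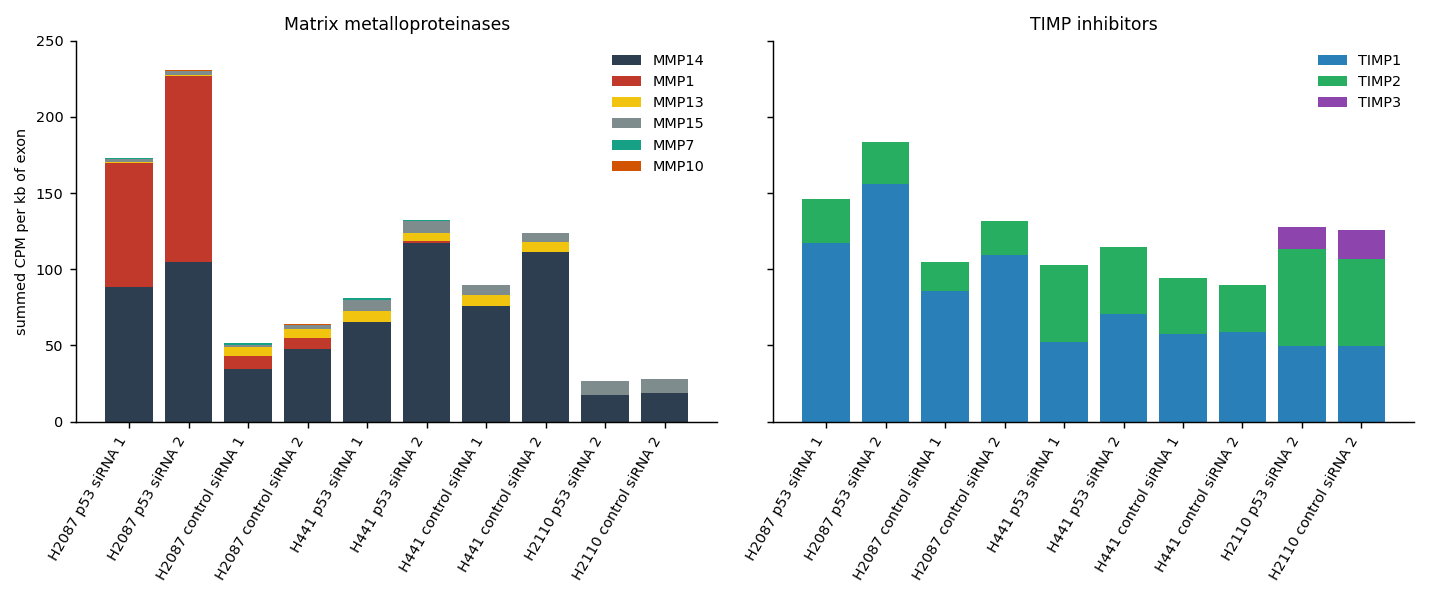
Summed level per library, in CPM per kb of exon (linear axis from 0), of the 6 matrix metalloproteinases on the left and the 3 TIMPs on the right, with p53 siRNA left of control siRNA in each line. MMP1 makes up 47.1% and 52.9% of the protease sum in the p53 siRNA libraries of NCI-H2087, against 16.7% and 11.6% in its control libraries. TIMP3 is visible in NCI-H2110 alone.

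Levels of different genes were compared per kb of exon, with lengths from GENCODE 29. The labels do not say whether the kit reads whole transcripts or their 3' ends, and for 3' ends a level per kb would understate long genes. In the p53 siRNA libraries of NCI-H2087, MMP1 averaged 102 CPM per kb (81.5 to 122), close to MMP14 at 96.6 (88.5 to 105), and the ranges of both overlapped. In the control libraries MMP1 averaged 8.01 CPM per kb and MMP14 41.0. The summed level of the 6 proteases divided by that of the 3 TIMPs was 1.18 and 1.26 in the p53 siRNA libraries of NCI-H2087, against 0.493 and 0.485 in its control libraries. In NCI-H441 it was 0.785 and 1.15 with p53 siRNA, against 0.957 and 1.39 with control siRNA, and overlapped. In NCI-H2110 it was 0.210 against 0.224. These ratios are of RNA and were not tested.

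In NCI-H2087 MMP14 gave 51.2% and 45.4% of the protease sum with p53 siRNA, against 66.4% and 74.8% with control siRNA, and MMP13 gave 0.366% and 0.252% against 11.3% and 8.71%. MMP14 gave 80.8% to 89.5% of the protease sum in the libraries of NCI-H441 and 65.4% to 65.6% in NCI-H2110, where MMP15 gave most of the rest. TIMP1 gave 80.3% to 85.04% of the inhibitor sum in NCI-H2087 and 51.1% to 65.6% in NCI-H441. TIMP2 led in NCI-H2110, with 50.3% in the p53 siRNA library and 45.7% in the control library. TIMP3 gave 10.9% with p53 siRNA and 15.1% with control siRNA there, and at most 0.0508% in any library of the other lines.

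Between the lines with control siRNA, 6 of the 9 genes were called for NCI-H2087 over NCI-H441, 3 higher and 3 lower. In this comparison 42.1% of all genes were called, 22% higher and 20.1% lower. MMP1 stood at 17.0 and 14.6 CPM in NCI-H2087, with 0.343 and 0.518 CPM for NCI-H441, the largest fitted difference apart from ADAMTS1 (5.16 ± 0.60 log2, adjusted p = 0.000133). ADAMTS1 averaged 2.33 CPM in NCI-H2087 and had 0 counts in both NCI-H441 libraries, at least 39.2-fold higher against a floor of 3 counts over that group. TIMP1 was higher by 0.75 ± 0.21 log2 (adjusted p = 0.0175). MMP14 was lower by -1.19 ± 0.30 log2 (adjusted p = 0.00988), MMP15 by -1.47 ± 0.30 (adjusted p = 0.00318) and TIMP2 by -0.71 ± 0.17 (adjusted p = 0.00676). TIMP1 lost its call without NCI-H2087 control replicate 2 or either NCI-H441 control library (adjusted p = 0.0785 to 0.150). MMP14 lost it without NCI-H2087 control replicate 1 or NCI-H441 control replicate 2 (0.0824 and 0.0934), and TIMP2 without replicate 1 of either line (0.0659 and 0.0546). MMP13, at 16.6 and 15.8 CPM in NCI-H2087, with 20.6 and 19.1 CPM for NCI-H441, was not called (-0.30 ± 0.21 log2, adjusted p = 0.275). The control libraries used here are also those of the comparisons with p53 siRNA.

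MMP1, MMP7, MMP10 and MMP13 lie on chromosome 11 in a cluster of 9 matrix metalloproteinase genes, in the order MMP7, MMP20, MMP27, MMP8, MMP10, MMP1, MMP3, MMP12 and MMP13. The neighbours of MMP1 were nearly silent in every library: MMP10 reached at most 9 counts and MMP3, another stromelysin, at most 3. MMP8, MMP20 and MMP27 reached at most 1 count. MMP12 was not analysed here. Within this cluster MMP1 rose and MMP13 fell in NCI-H2087.

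Of the other matrix metalloproteinases 5 of the 15 found in the table could be tested. By edgeR none of the 5 was called in NCI-H2087, beside 8.68% of all genes, or in NCI-H441, beside 0.00556%. No call among 5 genes is near those shares. None had an unadjusted p below 0.05 in either line. MMP9, the gelatinase, was the most abundant of them in NCI-H441, with 41.4 and 196 CPM with p53 siRNA, against 22.7 and 75.4 CPM with control siRNA. Replicate 2 was above replicate 1 by 4.72-fold with p53 siRNA and 3.31-fold with control siRNA, so the groups overlapped (1.27 ± 0.66 log2, adjusted p = 0.933). In the fit with the replicate block, where 0.417% of all genes were called in NCI-H441, MMP9 was called higher (1.13 ± 0.17 log2, adjusted p = 0.00822). In NCI-H2087 it had 13 and 13 counts with p53 siRNA, against 3 and 11 with control siRNA. Of the other inhibitors TFPI2, a secreted Kunitz-type protease inhibitor, rose in NCI-H2087, with 39.9 and 33.8 CPM with p53 siRNA against 22.6 and 18.1 CPM with control siRNA (0.86 ± 0.19 log2, adjusted p = 0.0266). That call was lost without each of the 4 libraries in turn and with library totals as the only scaling. TFPI2 was also at 514 CPM with p53 siRNA against 228 CPM with control siRNA in NCI-H2110, a ratio of 2.25-fold, and in NCI-H441 at 251 and 292 CPM with p53 siRNA against 243 and 308 CPM with control siRNA.

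Genes that activate or induce matrix metalloproteinases were listed separately, and the list was chosen with earlier results of these data known. In NCI-H2087, 5 of 11 rose and none fell, beside 4.98% of all genes higher and 3.69% lower, and their median change was 0.74 log2 beside -0.03 over all genes. PLAU, which encodes the plasminogen activator urokinase, had 1237 and 1361 CPM with p53 siRNA, against 138 and 167 CPM with control siRNA (3.09 ± 0.33 log2, adjusted p = 0.00137). CTSL, a lysosomal cathepsin, rose by 1.31 ± 0.19 log2, PLAT, the tissue plasminogen activator, by 1.55 ± 0.33, and FURIN, the convertase that activates pro-MMP14, by 0.75 ± 0.18. CTSB, another cathepsin, rose by 0.84 ± 0.20 log2. FURIN and CTSB lost the call with library totals as the only scaling. With the replicate block, which called 25.4% of all genes, 6 of the 11 were called higher and 2 lower. The call of PLAU alone held without each of the 4 libraries, with changes of 2.97 to 3.24 log2. In NCI-H441 none of the 11 was called by edgeR, beside 0.00556% of all genes, and 1 had an unadjusted p below 0.05. The change of PLAU differed between the lines by 2.79 ± 0.43 log2 (adjusted p = 0.0355), a call lost in limma-voom (adjusted p = 0.0644), without each of the 4 control libraries in turn, and without NCI-H2087 p53 siRNA replicate 2 or NCI-H441 p53 siRNA replicate 1.

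Of 14 AP-1, ETS and RUNX transcription factors, 4 rose in NCI-H2087 and none fell, beside 4.98% of all genes higher and 3.69% lower. Their median change was 0.48 log2 beside -0.03 over all genes. The list of factors was also chosen with earlier results of these data known. FOSL1, an AP-1 subunit of the Fos family, had 756 and 636 CPM with p53 siRNA, against 106 and 76.3 CPM with control siRNA (2.94 ± 0.22 log2, adjusted p = 0.000388). In NCI-H441 FOSL1 was at 506 and 676 CPM with p53 siRNA, against 538 and 584 CPM with control siRNA, and in NCI-H2110 at 23.5 against 22.2 CPM. Its change differed between NCI-H2087 and NCI-H441 by 2.86 ± 0.30 log2 (adjusted p = 0.0137), a call lost without each of the 4 control libraries in turn. JUN rose in NCI-H2087 by 1.22 ± 0.24 log2, JUNB by 1.66 ± 0.39 and the ETS factor ETV4 by 0.92 ± 0.20. These 3 lost the call without control replicate 1, control replicate 2 or p53 siRNA replicate 2, and JUNB also in limma-voom. With the replicate block 8 of the 14 were called higher and 1 lower, beside 25.4% of all genes called.

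**Figure D4:**
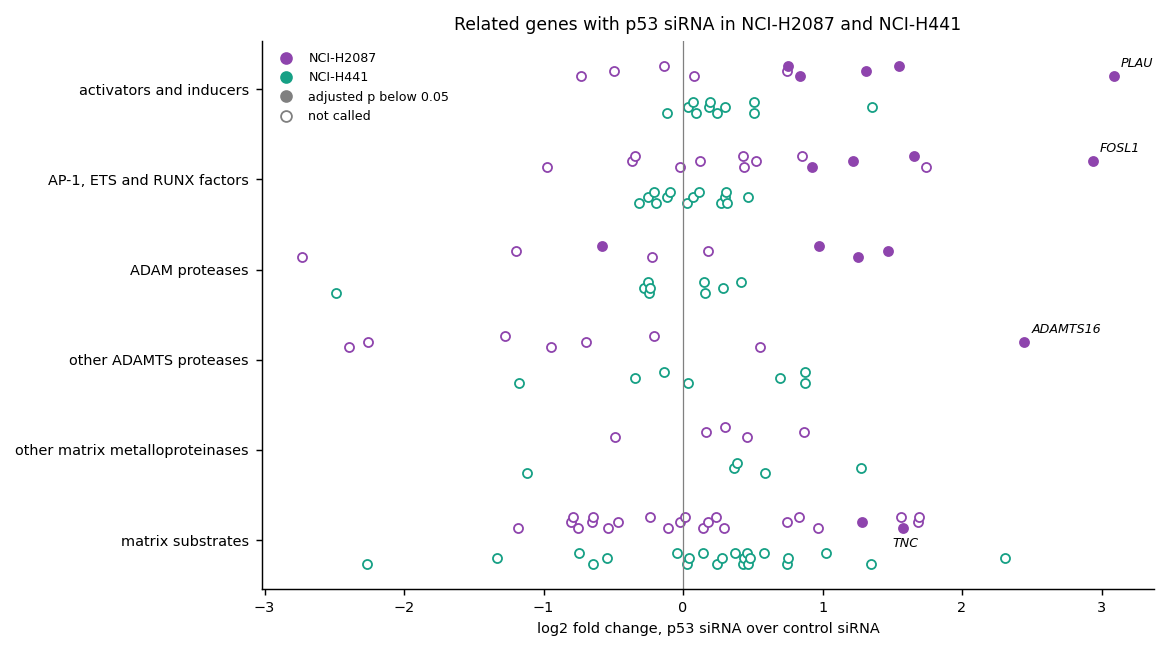
Log2 fold change of p53 siRNA over control siRNA for each tested gene of 6 lists in NCI-H2087 (purple, upper row of each list) and NCI-H441 (green, lower row), filled where the adjusted p was below 0.05, leaving out genes with 0 counts in a line. All filled points are in NCI-H2087, with PLAU at 3.09 and FOSL1 at 2.94 the farthest to the right.

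Among the ADAM proteases, which shed proteins from the cell surface, 3 of 9 rose in NCI-H2087 and 1 fell, beside 4.98% of all genes higher and 3.69% lower. This list and those of ADAMTS and matrix genes were also chosen with earlier results of these data known. ADAM28, 1 of these 9, had 0 counts in every NCI-H2087 library and could not be called there. The median of 0.00 log2 includes that gene. With the replicate block 3 of the 9 were called higher and 3 lower, beside 25.4% of all genes called. ADAM8 rose by 1.47 ± 0.28 log2, ADAM19 by 1.25 ± 0.31 and ADAM15 by 0.97 ± 0.19, and ADAM10 fell by 0.58 ± 0.15 log2. ADAM10 and ADAM19 lost the call without each of the 4 NCI-H2087 libraries in turn, ADAM10 also without the count filter or in a fit of that line alone, and ADAM19 with library totals as the only scaling. ADAM8, ADAM15, ADAMTS16 and LAMB1 lost it without control replicate 1, control replicate 2 or p53 siRNA replicate 2. Of the 8 other ADAMTS proteases tested, ADAMTS16 rose, from low counts of 29 and 39 with p53 siRNA against 5 and 7 with control siRNA (2.44 ± 0.50 log2, adjusted p = 0.0183), and the median of the 8 was -0.82 log2. Of 24 matrix genes 2 rose, TNC, the adhesion-modulating tenascin, by 1.58 ± 0.20 log2 (adjusted p = 0.00255) and LAMB1, a laminin chain, by 1.29 ± 0.28 (adjusted p = 0.0209), and the median was 0.08 log2. That count is near the 8.68% of all genes called. With the replicate block, which called 25.4% of all genes, 6 of these matrix genes were called higher and 2 lower, and of the ADAMTS genes ADAMTS6 was also called, lower. The change of TNC ran from 1.49 to 1.71 log2 without each of the 4 NCI-H2087 libraries in turn. In NCI-H441 edgeR called none of these genes, beside 0.00556% of all genes, and 1 of them, the laminin chain LAMA5, had an unadjusted p below 0.05. With the replicate block the laminin chain LAMB3 was called higher there (0.70 ± 0.13 log2, adjusted p = 0.0327).

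The most similar profiles over the 10 libraries were found by Pearson correlation of log2 CPM among 10911 genes of at least 5 CPM on average, and are a description, since the libraries of a line share its level. For MMP1 they were LAT (r = 0.986), GSTO1 (0.984), PNMA1 (0.983), LSP1P4 (0.981) and RPLP2 (0.980). GSTO1 averaged 372 CPM with p53 siRNA in NCI-H2087 and 190 CPM with control siRNA, and from 70.2 to 111 CPM in the groups of the other lines. For MMP13 they were BANK1 (r = 0.993), CTSO (0.993), ADGRF1 (0.985), OCLN (0.985) and ZNF620 (0.985). CTSO averaged 3.15 CPM with p53 siRNA in NCI-H2087 against 12.1 CPM with control siRNA, and stood at 0.13 CPM and 0.157 CPM in NCI-H2110. By Spearman correlation the 5 most similar genes shared none with these for MMP1, and CTSO alone for MMP13.

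The lines were checked against marker lists, which were also chosen with earlier results of these data known. Epithelial markers were present in all libraries, with a summed level of 2605 to 8986 CPM and none of the 6 at 0. Of the fibroblast markers PDGFRA was at 0 in every library, THY1 and DCN reached at most 1 count, and COL1A2 at most 6, whereas COL1A1 was present throughout and LUM reached 675 to 939 counts in NCI-H441. The fibroblast sum in NCI-H2087 was 12.4 and 16.4 CPM with p53 siRNA, against 14.2 and 17.0 CPM with control siRNA. Other marker lists also shifted with p53 siRNA in NCI-H2087, some up and some down. The epithelial sum was 8986 and 8908 CPM with p53 siRNA, against 4101 and 3761 CPM with control siRNA. Of its 6 genes 4 were called higher, beside 4.98% of all genes. Lung lineage markers summed to 386 and 210 CPM with p53 siRNA, against 1032 and 1126 CPM with control siRNA. Of these 5 genes 4 were called lower, beside 3.69% of all genes. LAMP3 lost the call without each of the 4 NCI-H2087 libraries in turn. SFTPA1, SFTPA2 and the epithelial CDH1 lost it without 3 of them, and KRT8 and KRT18 without 1. The immune list stood at 258 and 365 CPM against 116 and 137 CPM, nearly all of it CD68, which rose by 1.33 ± 0.31 log2 (adjusted p = 0.0312; call lost without control replicate 1, control replicate 2 or p53 siRNA replicate 2), and the endothelial list at 12.5 and 7.48 CPM against 22.5 and 24.7 CPM, nearly all of it KDR. The part of these shifts in the changes of MMP1, MMP13, ADAMTS1 and MMP14 was not tested. With library totals as the only scaling the median of all genes in NCI-H2087 moved to -0.21 log2 and 33.2% of the called genes were higher, against -0.03 log2 and 57.4% with TMM.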

How the data were processed

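The deposited table holds whole-number counts per gene, not normalized, from 10 libraries made with a Lexogen mRNA kit, per the labels' protocols. The submitters' processing notes name Bowtie2, RSEM 1.2.12 and hg19, without roles. Strandedness and whether the counts are rounded RSEM estimates are not given in the sources used here. Symbols came from a reference table (51959 of 57736 IDs).

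The analysis used edgeR 4.0.16 under R 4.3.3: filterByExpr on the 6 groups (minimum count 10, 17978 genes, 99.96% of counts; a gene could pass through 1 group alone), TMM, and a quasi-likelihood fit of 6 group means to all 10 libraries (4 residual degrees of freedom), or line plus siRNA (6). Tests were two-sided, with Benjamini-Hochberg adjustment across the tested genes. The variation between libraries beyond counting error had a common coefficient of 19.8%. For lack of replicates NCI-H2110 was compared as log2 ratios of CPM (prior count 2) among genes with at least 50 counts. Alternatives were RLE scaling, library totals, no filter, DESeq2 1.42.0, limma-voom 3.58.1, a replicate block, the 4 libraries of a line alone and leaving out each library. The code was tested on simulated data.

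Replicate numbers, given by the labels, were checked as a pairing: over 9332 genes the difference between replicates 2 and 1 correlated between the arms (r = 0.534 in NCI-H2087 and 0.595 in NCI-H441), so blocked values stand beside results whose call they change. All members are named. From the other lists up to 4 called genes with the smallest p are named, or up to 2 where none was called, and CTSB, ADAMTS6, LAMB3 and CD68 were added after their values were seen. The members and lists were chosen with earlier results of these data known. The level of the targeted transcript is not reported here. Lengths, overlaps and gene order came from GENCODE 29 (GRCh38) and were not used as positions of the reads.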

Additional observations from a re-analysis of the deposited data

Results flagged for a closer look

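The change of MMP13 with p53 siRNA differed between NCI-H2087 and NCI-H441 in the test of that difference, by -3.11 ± 0.31 log2 (edgeR, adjusted p = 0.0137). It was lower in both p53 siRNA libraries of NCI-H2087 than in both controls, and in NCI-H441 the level of 1 p53 siRNA library lay between those of the controls. Samples far from the rest of their group could not be searched for, since no group held more than 2 libraries.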

How the results depend on the processing

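Over 45 combinations of a gene and a comparison, 553 values were recomputed, of which 491 kept direction and side of the threshold, 20 lost the call, 16 gained it and 26 changed sign. The cause was not tested unless stated. In NCI-H2087 1560 genes were called, against 2700 with no count filter and 4571 with the replicate block, and 175 (without control replicate 2) to 1100 without 1 library, where fewer samples are fitted. Members called there numbered 4, and 2 to 3 without 1 library. In NCI-H441 1 gene was called, against 69 with no filter, 30 with DESeq2, 75 with the block, 0 with that line alone and 0 to 2 without 1 library, and 1 member (MMP1) with no filter. For the difference between lines 74 genes were called, against 810 with no filter, 476 with DESeq2, 31 with limma-voom, 1604 with the block and 0 to 90 without 1 library. Members called numbered 1, against 3 with no filter, 2 with DESeq2, 3 with the block and 0 to 1 without 1 library. Across 3 lines 71 genes were called, against 1123 with no filter, 609 with DESeq2 and 2 to 118 without 1 library. Members called numbered 1, against 4 with no filter, 2 with DESeq2, 2 with limma-voom and 0 to 2 without 1 library. Between lines with control siRNA 7568 genes were called, and 4693 to 5381 without 1 library. The block changed no other call of a member than those given above. A lone library left in a group was assumed to vary like the others.

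None of the sign changes was in a called value. With library totals MMP15 in NCI-H2087 was at -0.040 log2, and with DESeq2 TIMP3 across 3 lines at 0.065. Without 1 library, values ran from -0.39 to 0.52 for MMP15 and -0.61 to 1.45 for TIMP3 in NCI-H2087. In NCI-H441 they ran from -0.24 to 2.33 for MMP1, -0.30 to 0.039 for MMP13, -0.52 to 0.33 for MMP14, -0.15 to 0.27 for TIMP1 and -0.25 to 2.40 for MMP9. For the difference between lines they ran from -0.73 to 0.17 for MMP15, -0.13 to 0.10 for TIMP2, -1.34 to 0.73 for TIMP3 and -0.39 to 2.76 for ADAMTS1. Across 3 lines they ran from -0.40 to 0.43 for MMP7 and -0.32 to 0.69 for TIMP3. At these depths 3 counts are 0.111 to 0.155 CPM, and differences near that level were not detectable. This holds for MMP10 in every line, MMP7 in NCI-H2110, and TIMP3 in NCI-H2087 and NCI-H441. MMP7 had 3 to 24 counts in the libraries of NCI-H2087 and NCI-H441.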

Other observations

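Several related genes also differed between the lines with control siRNA. VCAN, the proteoglycan that ADAMTS1 cleaves, had 382 and 359 CPM in NCI-H2087, with 1.59 and 0.888 CPM for NCI-H441 (8.24 ± 0.38 log2, edgeR adjusted p = 8.59e-07). LAMB1 had 191 and 242 CPM in NCI-H2087, and 1.24 and 1.44 CPM for NCI-H441. COL6A1, a chain of collagen VI, was lower in NCI-H2087, at 1.29 and 1.51 CPM against 31.2 and 43.2 CPM. PLAU had 138 and 167 CPM in NCI-H2087, with 586 and 956 CPM for NCI-H441 (-2.34 ± 0.32 log2, adjusted p = 0.000335), and FOSL1 106 and 76.3 CPM against 538 and 584 CPM (-2.62 ± 0.22 log2, adjusted p = 1.78e-05). RECK, a membrane-anchored inhibitor of matrix metalloproteinases, had 48 and 85 counts in NCI-H2087 with control siRNA and 0 in all 4 libraries of NCI-H441.

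CDH1, which encodes E-cadherin, was called higher across the 3 lines (1.14 ± 0.15 log2, adjusted p = 0.0140), a call lost without NCI-H2087 control replicate 1 or p53 siRNA replicate 1. CDH1 had 206 and 127 CPM with p53 siRNA against 82.6 and 90.0 CPM with control siRNA in NCI-H2087. In NCI-H441 it stood at 1125 and 1416 CPM with p53 siRNA against 484 and 501 CPM with control siRNA, and in NCI-H2110 at 183 CPM with p53 siRNA against 86.4 CPM with control siRNA.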
